A study of Macaca fascicularis with 8 samples.

Results

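The subject is a set of 9 transcription factors of the trophoblast and the amnion, namely GATA2, GATA3, HAND1, TFAP2C, TBX3, ISL1, CDX2, TEAD3 and GCM1, in embryonic stem cells (ESCs) of the cynomolgus monkey, Macaca fascicularis. They were chosen by name, silent genes included, and each was matched to a row of the deposited expression table through its gene name or, where no row had that name, through its best protein match at 85% identity or more. GATA2 was found by gene name and 7 factors by protein match, so 8 of the 33121 genes in the table entered. ISL1 had no row by that rule: the only row matched to the ISL-1 protein had 81.4% identity, just outside the minimum, and its values are given as those of the ISL1-matched row without a test. TEAD3, at 90.8%, lay closest to the minimum from the inside.

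Polyadenylated RNA was sequenced from 4 primed and 4 dome-shaped libraries, and the design asks how gene expression differs between these cultures. The primed ESCs grew as flat colonies in CESM, a mixture of PSGro Human iPSC/ESC Growth Medium with a conventional medium for monkey ESCs, and their labels give single-cell passage as weak. The dome-shaped ESCs grew as domed colonies with strong single-cell passage in NHSMV, a knockout DMEM base with AlbuMAXI, N2 supplement, insulin, LIF, bFGF, TGF-β1, glutamine, nonessential amino acids, β-mercaptoethanol and Vitamin C. NHSMV also held the inhibitors PD0325901 (of MEK), CHIR99021 (of GSK3), SB202190 and SB203580 (of p38) and SP600125 (of JNK). Medium, colony shape and passage coincide with the group and cannot be told apart. The labels do not say whether the libraries of a group came from separate cultures, animals or cell lines, so p-values measure the spread between these libraries, which may be technical.

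Trophoblast is the outer lineage of the embryo that forms the placenta, and amnion is the thin epithelium that arises from the epiblast soon after implantation. Both are reached from primate pluripotent cells under BMP signals, and GATA2, GATA3, TFAP2A and TFAP2C are among the first factors to appear on that path. HAND1, TBX3 and ISL1 serve amnion, extraembryonic mesoderm and heart as well, CDX2 marks early trophectoderm and posterior embryo, and GCM1 drives the fusion of trophoblast cells into syncytium. Several of these factors are also active in pluripotent or germ cells, so their messages alone name no cell type.

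The values implied between 16360000 and 18080000 reads for a primed library and between 14400000 and 17680000 for a dome-shaped one, and 15141 to 15830 genes reached 1 RPKM (reads per kilobase, corrected for sequencing depth). A gene was tested if 4 or more libraries held it at 1 RPKM or above, which left 15597, and a gene was called at an adjusted p below 0.05. Of 9 genes that mark pluripotent stem cells, 7 had a row; their summed level was 2392 to 2898 RPKM in primed libraries, 1611 to 1693 in dome-shaped libraries 1 to 3 and 2384 in dome-shaped library 4. Of those 7 genes 4 were called lower (TDGF1, DNMT3B, ZFP42 and LIN28B; 57.1%, beside 7.96% of all genes tested) and 0 higher. At an unadjusted limma p under 0.05, 6 were lower and 0 higher, beside 2404 lower and 2526 higher among all 15597 genes tested. SOX2 stood at 219 ± 41.4 RPKM in primed and 264 ± 43.8 in dome-shaped libraries, NANOG at 134 ± 21.9 and 83.5 ± 32.9 (SD, n = 4 each), and neither was called. The NANOG groups did not overlap (116 to 163 RPKM in primed, 53.4 to 113 in dome-shaped libraries). In bulk RNA, fewer cells that express a gene and less RNA in each cell cannot be told apart.

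TEAD3 and HAND1 were lower in the dome-shaped libraries, with groups that did not overlap, and no factor was called higher by limma or had an unadjusted p under 0.05 in that direction. The other factors scattered between libraries of the same group by more than the groups differed, or were too low to be tested. Of the 8 factors with a row, 5 were tested, 2 were called lower and 3 were not called, while 3 were below the filter. Among all genes tested, 7.96% were called lower and 6.38% higher. HAND1 reached 1 RPKM in the 4 primed libraries only, so it passed the filter through the group where it was high and had to differ, as did 139 of all tested genes; the count of called factors is therefore not read as support. The median log2 fold change of the 5 tested factors was -1.04, beside 0.03 over all genes tested. HAND1, at -1.55, entered that median through the same filter, so the median is not read as support. Groups did not overlap, with the dome-shaped group lower, for 2 of the 5 factors (TEAD3 and HAND1) and for 10.7% of all genes tested. For HAND1 the filter fixed this outcome in advance, so that count is not read as support either.

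**Figure D1:**
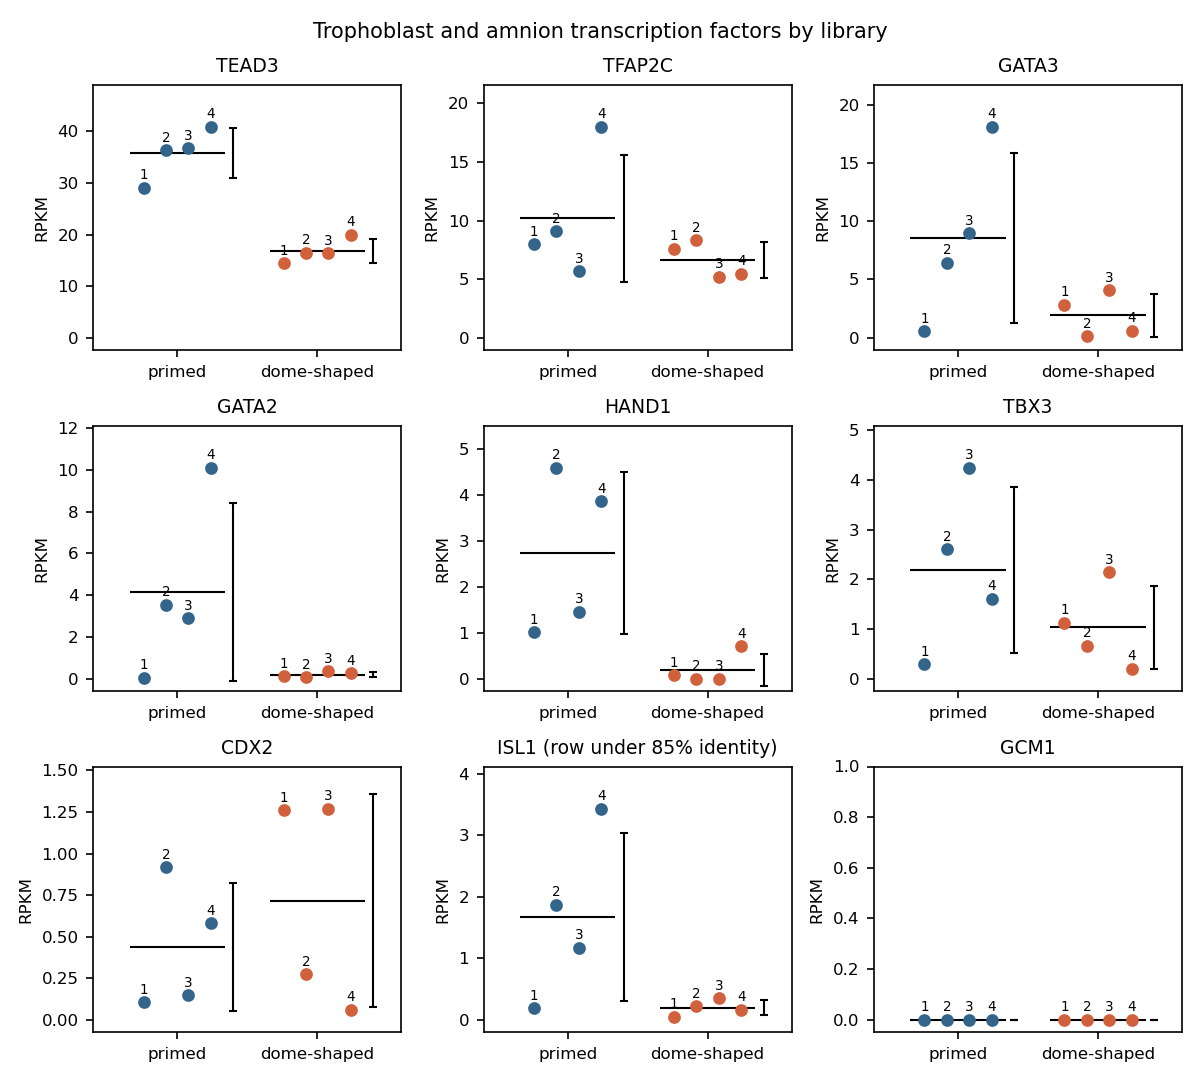
Level in RPKM (vertical axes, which differ between panels) of each factor in the 4 primed (blue) and 4 dome-shaped (orange) libraries; points are single libraries with their number, the horizontal line is the group mean and the bar beside it the SD. The groups are separate for TEAD3 and HAND1 and overlap for TFAP2C, GATA3, GATA2, TBX3, CDX2 and the ISL1-matched row, and GCM1 is at 0 in all 8 libraries.

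By level per kilobase, TEAD3 was the highest factor in both groups. In primed libraries the order of the means was TEAD3, TFAP2C, GATA3, GATA2, HAND1, TBX3 and CDX2, with the ISL1-matched row between TBX3 and CDX2. The lowest primed value of TEAD3, 29.1 RPKM, lay above the highest of TFAP2C, 18 RPKM, and every later pair of neighbours in that order overlapped. In dome-shaped libraries TEAD3 (14.5 to 20 RPKM), TFAP2C (5.22 to 8.32 RPKM) and GATA3 (up to 4.06 RPKM) were separate from one another, and the ranges of GATA3, TBX3, CDX2, GATA2 and HAND1 ran into each other. Measured against the 15597 tested genes, the mean level of TEAD3 over the 8 libraries lay at percentile 69.0, TFAP2C at 39.3, GATA3 at 29.5, TBX3 at 8.0 and HAND1 at 6.5.

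TEAD3, identifier ENSMMUG00000015909, encodes one of the 4 TEAD proteins, DNA-binding partners of the co-activators YAP and TAZ, and is abundant in placental trophoblast. It stood at 29.1, 36.4, 36.7 and 40.9 RPKM in primed libraries 1 to 4 and at 14.5, 16.5, 16.4 and 20 RPKM in dome-shaped libraries 1 to 4. Every dome-shaped library was below every primed one, and the spread within a group was small, with a coefficient of variation of 13.7% in primed and 13.6% in dome-shaped libraries. The means were 35.8 ± 4.91 and 16.9 ± 2.29 RPKM (SD, n = 4 each). On the log2(RPKM + 1) scale TEAD3 was 2.06-fold lower in dome-shaped ESCs (log2 fold change -1.04, SE 0.13, limma with Benjamini-Hochberg adjusted p = 0.00228). Without 1 library at a time the log2 fold change stayed between -1.14 and -0.98, with adjusted p up to 0.0112.

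The other TEAD genes did not pass the test. TEAD2 had the highest level of the family, 85.3 ± 8.66 RPKM in primed and 78.2 ± 8.59 in dome-shaped libraries (log2 fold change -0.13, limma adjusted p = 0.435). TEAD1 stood at 43 ± 3.87 and 49 ± 1.99 RPKM (log2 fold change 0.19, limma adjusted p = 0.155). TEAD4, a factor of the trophectoderm, was at 52.6, 57.4, 54.9 and 53.2 RPKM in primed and 26.5, 47.3, 45.5 and 41.4 RPKM in dome-shaped libraries. Its groups did not overlap, dome-shaped library 1 was far below the others, and the difference was not called (log2 fold change -0.46, limma adjusted p = 0.0881). Without dome-shaped library 1 TEAD4 was called, with a smaller log2 fold change of -0.28 (limma adjusted p = 0.0432).

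Within the family TEAD3 held a smaller share of the message in dome-shaped ESCs. TEAD3 made up 14.4%, 16.7%, 16.3% and 17.9% of the summed TEAD1 to TEAD4 RPKM in primed libraries 1 to 4, and 9.1%, 8.3%, 8.4% and 10.8% in the dome-shaped ones. The shares did not overlap, with means of 16.3% ± 1.46 and 9.2% ± 1.16 (SD, n = 4 each), while the sum itself was 219 ± 11.5 and 184 ± 18.2 RPKM. The difference in log2(RPKM + 1) between TEAD3 and the mean of TEAD1, TEAD2 and TEAD4 was -0.70 ± 0.17 in primed and -1.61 ± 0.18 in dome-shaped libraries. That change of -0.91 gave p = 0.0286 in an exact two-sided permutation test, the smallest p that the 70 relabellings of 4 against 4 libraries allow. The comparison was chosen after the values were seen. It remained between -0.99 and -0.86 without 1 library at a time, where the exact p was 0.0571, the smallest those sizes allow.

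**Figure D2:**
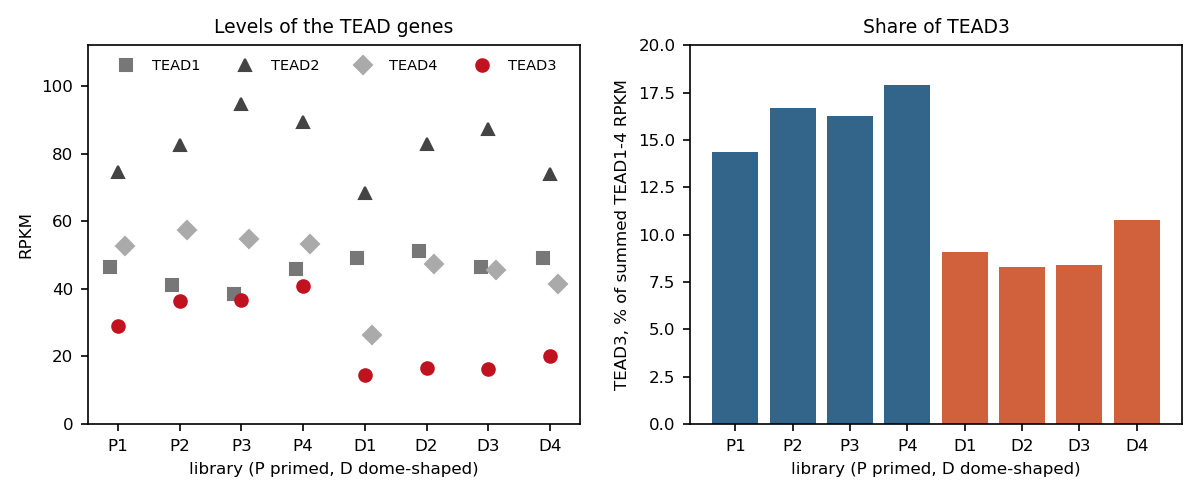
Left, RPKM of the 4 TEAD genes in each primed (P) and dome-shaped (D) library, 1 point per gene and library; right, TEAD3 as a percentage of the summed TEAD1 to TEAD4 RPKM in each library. TEAD3 is at 29.1 RPKM or more in primed and 20 or less in dome-shaped libraries, and its share is 14.4% to 17.9% against 8.3% to 10.8%.

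The co-activators of the TEAD proteins were not called. YAP1 was at 105, 119, 117 and 117 RPKM in primed and 98.2, 115, 98.7 and 110 RPKM in dome-shaped libraries (limma adjusted p = 0.318), and WWTR1, which encodes TAZ, gave an adjusted p of 0.254. Of 10 genes for cofactors of the TEAD and GATA proteins, 9 had a row and 6 were tested. LMO2, an adaptor in GATA complexes, was lower (2.38 to 3.83 RPKM in primed, 0.783 to 2.04 in dome-shaped, log2 fold change -0.80, limma adjusted p = 0.0388). That call was lost in 7 of the 8 fits without 1 library, with adjusted p up to 0.101 without primed library 2, and it was kept without dome-shaped library 2. VGLL3, another TEAD partner, had a log2 fold change of 0.74 that was not called (limma adjusted p = 0.15) and was called higher without primed library 1 (log2 fold change 1.00, adjusted p = 0.0477).

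TFAP2C, identifier ENSMMUG00000009364, encodes AP-2 gamma, a factor of trophoblast, naive pluripotency and primordial germ cells. It was at 7.97, 9.11, 5.68 and 18 RPKM in primed libraries 1 to 4 and 7.61, 8.32, 5.22 and 5.48 RPKM in dome-shaped libraries 1 to 4. All 8 libraries held it, primed library 4 stood highest, and the other 7 libraries overlapped. The difference was not called (log2 fold change -0.46, SE 0.30, limma adjusted p = 0.323), and without primed library 4 it was -0.17 (adjusted p = 0.65). Of 9 germ cell genes the summed level was 90.6 to 134 RPKM in primed and 42 to 57.7 in dome-shaped libraries. Of these, 5 were tested and 1, PRDM14, which is also a pluripotency gene, was called lower (20%, beside 7.96% of all genes tested). PRDM14 alone made up 52.9 to 80.7 RPKM of the primed and 13.9 to 43.4 of the dome-shaped sums. TFAP2A made up 52.8 RPKM in primed library 4. KIT reached 29.5 RPKM in primed and 11.7 in dome-shaped libraries, SOX17 24.5 and 13.5, and PRDM1 3.47 and 1.94. KIT, SOX17 and PRDM1 were not called. DPPA3 reached 2.59 RPKM in dome-shaped library 2, and NANOS3, DDX4 and DAZL did not exceed 0.552 RPKM in any library. The part of germ cell genes in the TFAP2C values was not tested.

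TFAP2A, which encodes the related AP-2 alpha of surface ectoderm, amnion and trophoblast, varied far more. It was at 0.725, 15.9, 3.68 and 52.8 RPKM in primed and 4.94, 0.449, 2.25 and 1.6 RPKM in dome-shaped libraries. Primed libraries 2 and 4 were above every dome-shaped one and primed library 1 was below all but 1, so the log2 fold change of -1.66 (SE 0.94) was not called (limma adjusted p = 0.256). It was -0.82 without primed library 4 (adjusted p = 0.508) and -2.47 without primed library 1 (adjusted p = 0.0712).

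GATA3, identifier ENSMMUG00000006944, encodes an early trophoblast and amnion factor. It was at 0.575, 6.43, 8.98 and 18.1 RPKM in primed libraries 1 to 4 and 2.83, 0.153, 4.06 and 0.61 RPKM in dome-shaped libraries 1 to 4. Primed libraries 2, 3 and 4 stood above all dome-shaped libraries, whereas primed library 1 was lower than 3 of them. The means, 8.53 ± 7.3 and 1.91 ± 1.85 RPKM (SD, n = 4 each), were not called different (log2 fold change -1.49, SE 0.74, limma adjusted p = 0.204). Without primed library 1 the log2 fold change was -2.20 (SE 0.55) and GATA3 was called lower (limma adjusted p = 0.0368); without any other single library it was not called, with adjusted p from 0.181 to 0.403.

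GATA2, identifier ENSMMUG00000021371, encodes a factor of early trophoblast and blood progenitors that binds the same DNA motif as GATA3. It was at 0.0551, 3.55, 2.91 and 10.1 RPKM in primed libraries 1 to 4 and 0.114, 0.0634, 0.362 and 0.253 RPKM in dome-shaped libraries 1 to 4. Primed library 1, at about 3 implied reads, stood with the 4 dome-shaped libraries (about 3 to 21 reads), and the other 3 primed libraries lay above all of them. Only 3 libraries reached 1 RPKM, so GATA2 was below the filter and was not tested; with no filter its log2 fold change was -1.67 (limma adjusted p = 0.131). The pattern across libraries was like that of GATA3: the order of the 4 primed libraries differed only in libraries 2 and 3, and dome-shaped library 3 was the highest and library 2 the lowest of its group for both.

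HAND1, identifier ENSMMUG00000010621, encodes a basic helix-loop-helix factor of trophoblast, amnion and extraembryonic mesoderm. It was at 1.01, 4.6, 1.46 and 3.87 RPKM in primed libraries 1 to 4 (29, 131, 46 and 113 implied reads) and at 0.0715, 0, 0 and 0.717 RPKM in dome-shaped libraries 1 to 4 (2, 0, 0 and 18 reads). The groups did not overlap, although dome-shaped library 4 came close to primed library 1. At 3 reads, the limit that a count of 0 allows, HAND1 would have been at 0.12 RPKM in dome-shaped library 2 and 0.0975 in library 3. The means were 2.74 ± 1.77 and 0.197 ± 0.348 RPKM (SD, n = 4 each), and HAND1 was called lower (log2 fold change -1.55, SE 0.36, limma adjusted p = 0.0219). The size of the fold depends on the pseudocount, with -3.62 at a pseudocount of 0.1 (limma adjusted p = 0.0194). The call was lost without primed library 2 (adjusted p = 0.0588), primed library 4 (0.0599), dome-shaped library 2 (0.0639) or dome-shaped library 3 (0.0632), with log2 fold changes between -1.80 and -1.31 over the 8 such fits.

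Genes of mesoderm, where HAND1 is also active, were set beside it. Of 15 genes of lateral and cardiac mesoderm, 13 had a row, 6 were tested and none was called by limma. None reached an unadjusted limma p under 0.05 either. Among all 15597 genes tested, 14.3% were called in either direction and 4930 had an unadjusted p under 0.05. With 6 genes tested, the absence of calls is not read as a result about mesoderm genes. Their summed level was 22.4 to 86.2 RPKM in primed and 18.3 to 73.4 in dome-shaped libraries, and HAND2, the closest relative of HAND1, did not exceed 0.432 RPKM in any primed library and was at 0 in the 4 dome-shaped ones. In the primed group, library 2 was highest and library 1 lowest in both HAND1 and the mesoderm sum. Primed library 3 had a higher sum than primed library 4 (54.1 against 41.7 RPKM) but less HAND1. In the dome-shaped group, library 2 had the highest sum (73.4 RPKM) with HAND1 at 0. Dome-shaped library 4, highest of its group in HAND1, had the lowest sum (18.3 RPKM). A part of mesoderm cells in the HAND1 values was not tested.

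TBX3, identifier ENSMMUG00000015070, encodes a T-box repressor found in extraembryonic and pluripotent cells. It was at 0.297, 2.61, 4.25 and 1.61 RPKM in primed libraries 1 to 4 and 1.13, 0.667, 2.14 and 0.202 RPKM in dome-shaped libraries 1 to 4. Primed libraries 2 and 3 lay above every dome-shaped library and primed libraries 1 and 4 within their range, and the difference was not called (log2 fold change -0.57, SE 0.44, limma adjusted p = 0.407). Primed library 1 was again the lowest of its group.

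The row matched to ISL1, a LIM-homeodomain factor of amnion and heart progenitors, was at 0.19, 1.87, 1.17 and 3.43 RPKM in primed libraries 1 to 4 and 0.0489, 0.218, 0.356 and 0.164 RPKM in dome-shaped libraries 1 to 4. Primed libraries 2, 3 and 4 were above every dome-shaped library and primed library 1 was within their range. Because its match is under the identity minimum, which gene the row stands for is uncertain.

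CDX2, identifier ENSMMUG00000016137, encodes a caudal-type homeodomain factor of trophectoderm and posterior embryo. It was at 0.107, 0.918, 0.147 and 0.58 RPKM in primed libraries 1 to 4 and 1.26, 0.276, 1.27 and 0.0613 RPKM in dome-shaped libraries 1 to 4. Dome-shaped libraries 1 and 3 were the highest, dome-shaped library 4 was the lowest, and no test was made because only 2 libraries reached 1 RPKM (with no filter, log2 fold change 0.22, limma adjusted p = 0.692). Its relative CDX1, chosen for mention after its values were seen, was at 0.116 to 0.323 RPKM in primed and 0.688, 2.66, 11.4 and 0.541 RPKM in dome-shaped libraries. The groups of CDX1 did not overlap, but it was below the filter (with no filter, limma adjusted p = 0.195).

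GCM1, identifier ENSMMUG00000022083, was at 0 in all 8 libraries, where 3 reads would have given 0.0606 to 0.0761 RPKM. Genes of fused trophoblast were low but not all silent: of 7 genes that define syncytiotrophoblast 5 had a row, none reached the filter, their summed level was 0.818 to 1.58 RPKM in primed and 0.245 to 1.12 in dome-shaped libraries, and HSD3B1, an enzyme of placental steroid synthesis, was at 0 in all 8. ERVW-1, the envelope gene of a fusogenic retrovirus, held most of that sum in dome-shaped libraries, at up to 1.12 RPKM. CGA, the hormone subunit shared by chorionic gonadotropin, was at 0.0972 to 0.673 RPKM in primed libraries and at 0 in the 4 dome-shaped ones.

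Primed library 1 held the lowest primed level of 6 of the 7 factors with any reads, TFAP2C being the exception. Primed library 4 held the highest primed level of 4 of the 7, namely GATA2, GATA3, TFAP2C and TEAD3. The shares of all genes with their lowest or highest primed level in these libraries were not computed. These counts are therefore not read as the factors varying together. The size of the scatter differed widely, with coefficients of variation in primed libraries of 102% for GATA2, 88% for CDX2, 85.7% for GATA3, 76% for TBX3, 64.7% for HAND1, 52.9% for TFAP2C and 13.7% for TEAD3. Without primed library 1, 3 factors were called lower (TEAD3, HAND1 and GATA3). Primed library 1 was not low for every gene: KRT7, KRT8 and KRT18 were highest there. The summed level of 9 fibroblast genes, markers of feeder cells, was 318 RPKM in primed library 1, 157 to 209 RPKM in the other primed libraries and 129 to 216 RPKM in dome-shaped libraries. COL1A1 was at 136 RPKM and COL1A2 at 53.3 RPKM in primed library 1. Primed libraries 2 to 4 had 38.8 to 74.4 RPKM of COL1A1 and 5.44 to 10.5 RPKM of COL1A2. THY1 was also highest in primed library 1 (52.2 RPKM). The rest of the list did not follow: COL3A1 was at its lowest primed level there (62.3 RPKM), and FBN1 and PDGFRB lay within the range of the other primed libraries. DCN, LUM and POSTN did not exceed 0.141 RPKM in primed library 1. The part of fibroblasts in the low factor levels of that library was not tested. Counted over genes at 1 RPKM or more, primed library 1 held 15233, against 15590 to 15830 in the other primed libraries.

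The sample titles carry a number from 1 to 3 whose meaning the labels do not give, so the 4 libraries of a group carry 3 numbers. Number 1 is that of primed library 1 and dome-shaped libraries 1 and 2. Number 2 is that of primed library 2 and dome-shaped library 3, and number 3 that of primed libraries 3 and 4 and dome-shaped library 4. Some titles hold further characters, which were not used here. In these the titles of dome-shaped libraries 1 and 2 differ, while primed library 4 and dome-shaped library 4 share them apart from a closing letter. Differences within a number rest on 1 or 2 libraries a side, with no test. TEAD3 was lower in dome-shaped libraries within each number, by log2 differences of -0.87, -1.10 and -0.92, and HAND1 likewise, by -0.95, -2.48 and -1.01. GATA3 was not: within number 1, which holds primed library 1, the difference was 0.41, against -0.55 and -3.10 within numbers 2 and 3. GATA2 gave 0.04, -1.74 and -2.39, TBX3 gave 0.54, -0.20 and -1.62, and TFAP2C gave -0.002, -0.70 and -0.80. CDX2 gave 0.62, 0.25 and -0.34.

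**Figure D3:**
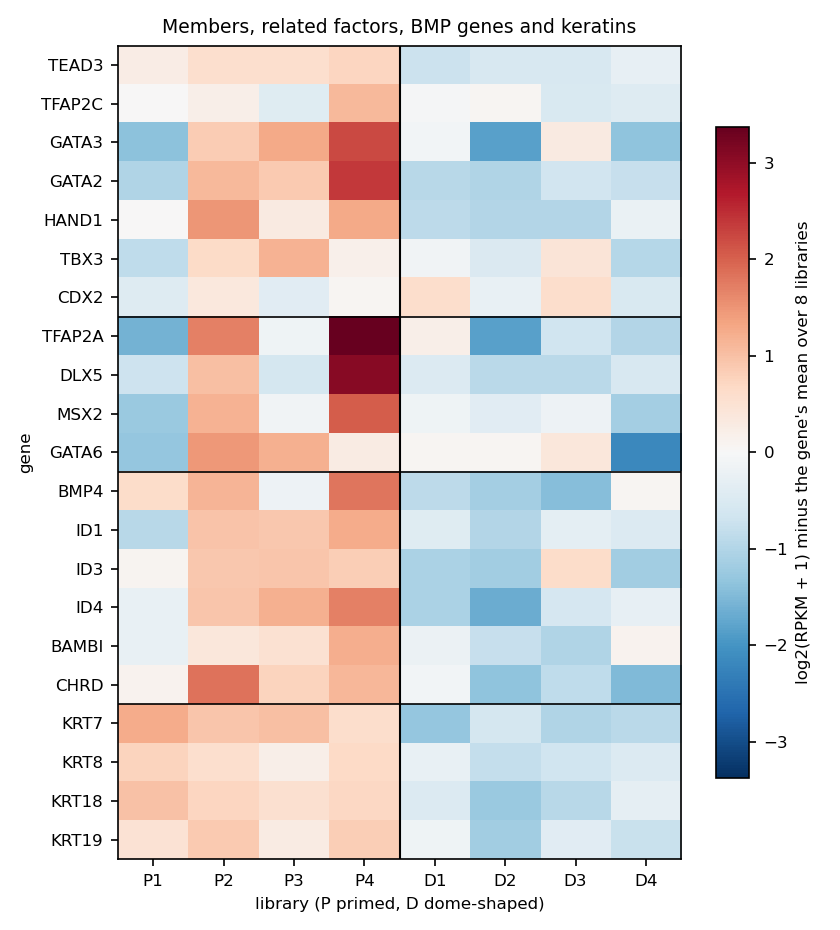
log2(RPKM + 1) of each gene (rows) in each primed (P) and dome-shaped (D) library (columns), minus the gene's mean over the 8 libraries; red is above and blue below that mean, and horizontal lines separate the factors, related factors, BMP genes and keratins. GATA2, GATA3, TFAP2A, DLX5 and MSX2 are low in P1 and highest in P4, whereas the keratins and TEAD3 are above their mean in all 4 primed libraries.

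Relatives of the 9 factors in the same protein families were measured beside them. Of 26 such genes 25 had a row, 9 were tested and none was called by limma. Among all genes tested, 14.3% were called in either direction. An unadjusted limma p under 0.05 was reached by 2 of the 9 (TEAD1 and TEAD4), beside 4930 of all 15597 genes tested. With 9 genes, neither count is read as a trait of these relatives. The median log2 fold change of the 9 was -0.46. The GATA family member GATA6, a factor of endoderm and mesoderm, was at 1.69, 17.2, 14.3 and 7.07 RPKM in primed and 5.87, 5.92, 7.65 and 0.467 RPKM in dome-shaped libraries, with overlap of the groups and no call (limma adjusted p = 0.449). Primed library 1 was again the lowest primed library for GATA6, which was chosen for mention after its values were seen.

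Among 17 other trophoblast transcription factors 9 were tested, with a median log2 fold change of -0.61. Limma called 3 lower (33.3%, beside 7.96% of all genes tested) and 0 higher. At an unadjusted limma p under 0.05, 4 were lower and 0 higher, beside 2404 lower and 2526 higher among all 15597 genes tested. OVOL1, described below, passed the filter only through the group where it was high. The counts and the median of this list are therefore not read as support. ARID3A, a chromatin factor of trophoblast commitment, was at 44.7, 39.9, 40.4 and 42 RPKM in primed and 29.4, 26.8, 27.4 and 24.9 RPKM in dome-shaped libraries. The groups were well apart and tight (log2 fold change -0.61, SE 0.08, limma adjusted p = 0.00305). ELF3, an epithelial ETS factor, was at 5.83 to 13.3 RPKM in primed and 1.58 to 5.21 in dome-shaped libraries (log2 fold change -1.58, limma adjusted p = 0.0123). OVOL1, a zinc finger factor of epithelia and trophoblast, was at 1.09 to 2.75 and 0.278 to 0.625 RPKM (log2 fold change -1.15, limma adjusted p = 0.0108) and, like HAND1, passed the filter only through the primed libraries. ELF5, TP63 and VGLL1, factors of trophoblast stem cells or cytotrophoblast, did not reach 1 RPKM in any library.

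The scatter of GATA2 and GATA3 was shared by 2 homeobox genes of amnion and trophoblast, which were chosen for mention after their values were seen. DLX5 was at 0.21, 2.98, 0.308 and 15.4 RPKM in primed libraries and at 0.0393 to 0.433 RPKM in dome-shaped ones, and was below the filter. MSX2 was at 0.359, 6.29, 2 and 12.5 RPKM in primed and 1.96, 1.52, 1.89 and 0.476 RPKM in dome-shaped libraries, and was not called (limma adjusted p = 0.349). Both were lowest in primed library 1 and highest in primed library 4 within their group, as were GATA2 and GATA3.

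Of 20 structural, hormone and surface genes of trophoblast, 17 had a row and 8 were tested, with a median log2 fold change of -1.15. Of these, 5 were called lower (62.5%, beside 7.96% of all genes tested), namely KRT7, KRT8, KRT18, KRT19 and PGF. CYP11A1, EGFR and SLC40A1 were not called (limma adjusted p = 0.557, 0.243 and 0.844). The keratins KRT7, KRT8, KRT18 and KRT19 form the filaments of trophoblast and of other simple epithelia. KRT7 was at 17.9, 14.3, 15.1 and 10.9 RPKM in primed and 2.24, 4.32, 2.96 and 3.24 RPKM in dome-shaped libraries, with no overlap (log2 fold change -1.89, limma adjusted p = 0.00128). KRT8, the most abundant, was at 254 to 374 and 128 to 187 RPKM (log2 fold change -1.09, limma adjusted p = 0.00333). KRT19 was at 83.6 to 129 and 30.1 to 62 RPKM (log2 fold change -1.24, limma adjusted p = 0.00932). For KRT18 8 rows of the table fitted the name and for KRT19 4, so reads may be split between copies.

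Of 11 amnion genes 8 were tested and 1 was called lower (12.5%, beside 7.96% of all genes tested), with a median log2 fold change of -0.59. IGFBP3, a secreted binder of insulin-like growth factors, was at 10.1, 26.2, 18.3 and 33.8 RPKM in primed and 3.06, 5.15, 3.31 and 8.26 RPKM in dome-shaped libraries (log2 fold change -1.92, limma adjusted p = 0.0122). VTCN1, an immune checkpoint ligand that marks amnion and trophoblast, was at 27.6 to 51.2 and 41.3 to 59.1 RPKM and was not called (log2 fold change 0.23, limma adjusted p = 0.417). BAMBI, a decoy receptor of the BMP pathway, had a log2 fold change of -0.94 that was not called (limma adjusted p = 0.0852) and was called without primed library 1 (adjusted p = 0.0395) or dome-shaped library 4 (0.047). The summed level of the amnion-defining genes with a row, 4 of 5, was 28.9 to 105 RPKM in primed and 41.8 to 61.4 in dome-shaped libraries. It rested mostly on VTCN1 except in primed library 4, where TFAP2A at 52.8 RPKM exceeded VTCN1 at 51.2 RPKM.

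BMP signals induce GATA2, GATA3, TFAP2A and MSX2 in primate pluripotent cells, so the pathway was described next to them. Of 24 BMP pathway genes 22 had a row and 18 were tested, and the median log2 fold change was -0.25. Limma called 4 lower (22.2%, beside 7.96% of all genes tested) and 0 higher. At an unadjusted limma p under 0.05, 7 were lower and 0 higher, beside 2404 lower and 2526 higher among all 15597 genes tested. The ligand gene BMP4 was at 24.8, 36.7, 14.1 and 58.6 RPKM in primed and 8.15, 6.63, 5.21 and 16.7 RPKM in dome-shaped libraries. Primed library 3 lay within the dome-shaped range, and BMP4 was called lower (log2 fold change -1.71, limma adjusted p = 0.0317). CHRD, which encodes the BMP antagonist chordin, was also lower, at 9.45 to 33.3 against 2.45 to 8.11 RPKM (log2 fold change -1.89, limma adjusted p = 0.016).

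The ID genes, direct targets of BMP signals, followed different courses. ID1 was at 55.6, 212, 205 and 257 RPKM in primed and 80.5, 54.4, 86.2 and 78 RPKM in dome-shaped libraries. Primed library 1 lay within the dome-shaped range and the other 3 far above it, so ID1 was not called (log2 fold change -1.09, limma adjusted p = 0.114), whereas without primed library 1 it was called lower (log2 fold change -1.59, adjusted p = 0.00156). ID4 was lower (log2 fold change -1.78, limma adjusted p = 0.0242), as was ID3 (log2 fold change -1.39, adjusted p = 0.0446), and ID2 had a log2 fold change of 0.79 that was not called (adjusted p = 0.402). The calls of ID3, ID4 and BMP4 were not stable: in the 8 fits without 1 library ID3 was lost in 6, with adjusted p up to 0.114, ID4 in 6, up to 0.0649, and BMP4 in 5, up to 0.085. The number of BMP genes called lower ran from 1 to 6 over those fits. The summed level of the BMP pathway genes was 375 RPKM in primed library 1, 669 to 867 RPKM in primed libraries 2 to 4 and 296 to 435 RPKM in dome-shaped libraries. Primed library 1, the lowest primed library for GATA2, GATA3 and TBX3, was thus also the lowest for the BMP sum. Much of that gap lay in ID1 and ID3 (114 RPKM against 192 to 204 in the other primed libraries), while the inhibitor SMAD7 (43.2 RPKM) and the antagonist GREM1 (6.03 RPKM) were highest in primed library 1, and BMP4 there was above its level in primed library 3. Whether the BMP sum and the factor levels are linked was not tested.

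To see which genes followed each tested factor across the 8 libraries, each of the 2980 tested genes that the table names was ranked by the root mean square difference of its centred log2(RPKM + 1) values from those of the factor. TEAD3 was followed most closely by UPK1B, a uroplakin of epithelial surfaces, at 0.11 log2 units, beside a range of 1.44 for TEAD3 itself. HAND1 was followed by TMEM30B at 0.32, with a range of 2.49, and TBX3 by VWF, the clotting factor of endothelium, at 0.15, with a range of 2.13. The nearest gene to TFAP2C was PPP1R3F at 0.28, with a range of 1.61. The nearest gene to GATA3 was KLHL14 at 0.53, with a range of 4.05. These rankings describe 8 libraries in 2 groups and carry no test.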

How the data were processed

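The authors deposited 1 table of RPKM values for 8 libraries, with a query length in bases and, for the best protein match of each gene, the identity in percent, per the file headers. Tools listed in the submitters' processing notes, with no role stated, are TopHat2 2.0.9, Bowtie2 2.0.6 and HTSeq 0.6.1. Neither build nor annotation is given in the sources used here. No strand-specific step is recorded, so reads of overlapping antisense genes cannot be told apart. Of 33138 rows 17 were blank and left out. Columns were matched to sample titles, and the columns of other samples numbered 0. In 71.6% to 73.5% of values under 50 reads, RPKM times length was a whole number of reads within 0.01 (2.0% by chance), which gave the implied depth but not reads for nearly all genes.

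Values were compared on log2(RPKM + 1) with limma 3.58.1 in R 4.3.3 (two-sided, lmFit and trended eBayes, without covariates), Benjamini-Hochberg adjusted over all 15597 genes with at least 1 RPKM in 4 of 8 libraries. A pseudocount of 1 understates the change of low genes. The fit was tested on simulated data. The exact permutation test ran in scipy 1.17.1. The factors and the 6 gene lists and 7 marker lists were chosen with earlier results of these data known. All 9 factors are named, and from each list up to 4 genes, first by adjusted p and then by mean. Some further genes are marked as chosen after their values were seen or stand as values beside a factor. Others were named outside that rule without a mark, such as ID2, ID3, SMAD7, GREM1, PGF, CYP11A1, EGFR and SLC40A1. Of 140 list genes 129 had a row. In addition, 1 gene chosen for mention is not reported here. Alternatives were other pseudocounts, no filter or a mean of at least 5 RPKM, quantile or median-of-ratios scaling, no mean trend, each library left out, the number in the titles as a replicate block, and the sum of rows fitting a factor. No sequence or genome coordinate was used.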

Additional observations from a re-analysis of the deposited data

Results flagged for a closer look

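In groups of 4 libraries, a library was singled out where its gap to the nearest other library passed Dixon's critical value as a share of the range of the group. That happened in 4 of 73 groups of the factors and named genes, and chance alone singles out about 1 in 20. HAND1 was at 0.717 RPKM in dome-shaped library 4, against 0 to 0.0715 RPKM in the other 3. YAP1 was at 105 RPKM in primed library 1, against 117 to 119 RPKM in the other 3. ID3 was at 114 RPKM in primed library 1, against 192 to 204 RPKM in the others, and at 165 RPKM in dome-shaped library 3, against 46.5 to 50.3 RPKM in the others.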

How the results depend on the processing

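Of the tested factors 2 were called lower in the main setting, and that number was 1 at a mean of at least 5 RPKM, where HAND1 was not tested, and 1 to 3 without 1 library at a time. The number called higher was 0 in each of these settings. Over all genes tested, calls without 1 library ran from 381 to 1289 higher and from 655 to 1441 lower, beside 995 and 1242 with all 8; the cause was not tested. Quantile normalization gave 1232 higher and 1231 lower, so 50% of calls were higher, beside 44.5% in the main setting, 39.9% with no filter and 41.1% after median-of-ratios scaling. For 31 factors and named genes, 443 of 490 results under an alternative kept their direction and their side of the threshold, 41 lost the call, 6 gained it and 0 reversed. The 490 include genes not called in the main setting, which had no call to lose. The 443 therefore do not measure how stable the calls were. No factor had several rows, so summing rows changed nothing. Levels under the 3-read limit of 0.0606 to 0.0761 RPKM for GCM1 could not be seen.

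With the number in the titles as a replicate block, 303 genes were called higher and 593 lower (33.8% higher), and 1 factor was called lower. TEAD3 gave -0.95 (limma adjusted p = 0.00744) and HAND1 lost its call at -1.39 (adjusted p = 0.0666), as did ELF3 (adjusted p = 0.0545), BMP4 (0.1), LMO2 (0.101) and PGF (0.0668). Deviations of same-numbered libraries correlated from -0.10 to 0.12, and those of libraries with different numbers from -0.22 to 0.20. With 4 libraries a group, these values cannot decide whether a number marks a shared origin. The block is given as an alternative only.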
